A study of Chrysanthemum x morifolium with 40 samples.

Results

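The genes described here are those of the chrysanthemum annotation whose Swiss-Prot name reads Dehydration-responsive element-binding protein (DREB) or holds the word TINY, and 110 of the 178540 genes measured carried such a name. By name, 71 were DREB1 (2 of form 1A, 5 of 1B, 7 of 1C, 45 of 1D, 5 of 1E and 7 of 1F), 19 were DREB2 (13 of 2A, 1 of 2B and 5 of 2D), 18 were DREB3 and 2 were TINY. Poly(A) RNA was sequenced from roots of 8-week-old seedlings, raised from cuttings, of 2 'Hangju' cultivars, one with enhanced waterlogging tolerance (EWT) and the conventional, sensitive 'zaoxiaoyangju' as control (CK). Each cultivar was sampled before flooding (0 h), after 3 h, 12 h and 24 h under water, and after 24 h under water followed by 3 h of reoxygenation (24_3 h), with 4 libraries in each of the 10 groups. No unflooded roots were sampled at the later times, so a change from 0 h cannot be told apart from a change with the time of day.

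DREB proteins are plant transcription factors of the AP2/ERF superfamily that bind the dehydration-responsive element (DRE, also called the C-repeat), a short motif in the promoters of many cold, drought and salt genes. In Arabidopsis the DREB1 genes, also called CBF, are known for rapid induction by cold, whereas DREB1D (CBF4) is known for drought and abscisic acid, and DREB1E and DREB1F (DDF2 and DDF1) for salt and gibberellin responses. The DREB2 genes act in dehydration and heat, and DREB2A protein is kept low in unstressed plants by the E3 ligase DRIP2 and by the BPM adaptors. DREB3, which is also called TINY2 in Arabidopsis, and TINY belong to the same DREB branch, and TINY is known to link drought responses with growth control. Low oxygen sensing in flooded plants is known mainly from another branch of the superfamily, the group VII ERF factors, which are not among the genes described here.

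The names rested on sequence matches, 102 of them to Arabidopsis proteins, 7 to indica rice and 1 to japonica rice. Of the 110 genes, 98 were annotated to the AP2/ERF-ERF family and 97 held the Pfam AP2 domain, PF00847. For 96 genes the span on the chromosome equalled the gene length used for the normalisation, so that no intron was annotated. The gene lengths ran from 151 to 2579 bases. The genes were gathered on a few chromosomes, with 61 of 110 on chromosomes 22 to 27, and 50 lay in 9 groups of neighbours no more than 100 kb apart. The largest such group held 20 genes on chromosome 27, between positions 203730630 and 204029337, and the next held 9 genes on chromosome 26. Tandem neighbours and equal-length copies can share reads, and the sources used here do not say how multiply mapped reads were counted, so that values of single copies are uncertain where the copies are near-identical.

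Expression was given as FPKM, the number of fragments scaled to gene length and library size. The libraries held 3517588 to 9929777 fragments counted on genes, and EWT roots at 0 h and 3 h had more than all CK libraries. On the log2 scale each library correlated with the others of its own group at a mean r of 0.844 to 0.923. The summed level of 89 genes of root tissue was 188.6 to 1514 FPKM in every library. Its group median was 388 FPKM at 0 h, 735 FPKM at 3 h and 258 FPKM at 24 h in CK and 732, 1412 and 449 FPKM in EWT, and the part of this in the results for those times was not tested. Most of this sum came from 39 genes of high-affinity nitrate transporters, at a summed 168 to 1428 FPKM (median 552), so that it mainly follows these genes. The list also held Casparian strip membrane protein genes at 0.587 to 89.3 FPKM. Its genes of root patterning were SHORT-ROOT genes at 9.75 to 44.8 FPKM and SCARECROW genes at 0.920 to 8.77 FPKM. The summed level of 179 genes of shoot and photosynthesis markers was 38.5 to 235 FPKM, with 47 of them at 0 throughout. Its group median went from 51.9 FPKM in CK and 54.4 FPKM in EWT at 0 h to 204 FPKM in CK at 24 h and 183 FPKM in EWT at 12 h, and the part of this in the results for 12 h and 24 h was not tested. In whole roots, fewer cells of a type and less RNA per cell cannot be told apart. The methods of the study call the 4 libraries of a group biological replicates, without saying how many plants each held.

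Of the 110 genes, 45 reached 1 FPKM in at least 4 libraries and entered the test (25 DREB1, 10 DREB2 and 10 DREB3 genes), while 65 did not. A gene was called changed where limma gave a Benjamini-Hochberg adjusted p of at most 0.05, over all 89517 genes tested, and a fitted fold of at least 2 on the log2(FPKM + 0.1) scale. This scale understates changes of genes expressed at low levels. Since a gene can pass the entry filter through the groups where it is high, the shares below are read only beside the same share over all genes tested. Both were computed with the same rule.

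After 3 h under water, 6 of the 45 genes rose and 8 fell in CK, which was 31.1% called beside 25.5% of all genes tested (11.3% of all genes rose and 14.2% fell). In EWT 10 rose and none fell at 3 h, or 22.2% beside 21.6% of all genes (8.96% rose, 12.7% fell), and 0 of the 45 were lower at an unadjusted p under 0.05. In CK falls thus outnumbered rises at 3 h both among the DREB genes and among genes at large. In EWT all calls at 3 h were rises, whereas genes at large fell more often than they rose. At 12 h in CK 20 rose and 5 fell, or 55.6% beside 45.6% of all genes (18.4% rose, 27.1% fell). In EWT 23 rose and none fell at 12 h, or 51.1% beside 46.8% (20.2% rose, 26.5% fell), with 3 lower at an unadjusted p under 0.05. Fitted with precision weights (vooma, also in limma), EWT again had no gene called lower at 3 h or 12 h. At 12 h genes at large thus fell more often than they rose, and the DREB genes rose more often than they fell. At 24 h 17 rose and 7 fell in CK, or 53.3% beside 49% (20.4% rose, 28.6% fell). In EWT 21 rose and 8 fell at 24 h, or 64.4% beside 46% (19.3% rose, 26.7% fell).

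The split between rises and falls depended on the scaling. Dividing by all counted fragments instead moved the median of all genes by -0.38 (log2) in CK and -0.49 in EWT at 12 h and by -0.36 in both cultivars at 24 h. It gave 14 genes higher and 10 lower in CK at 24 h, 23 and 5 in EWT at 12 h, and 16 and 11 in EWT at 24 h.

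After 3 h of reoxygenation many of these levels were lower again. Relative to 24 h, 17 genes fell and 1 rose in CK, or 40% beside 27.5% of all genes (14.1% rose, 13.3% fell). In EWT 14 fell and 6 rose, or 44.4% beside 24.9% (13.3% rose, 11.7% fell). With all counted fragments as the divisor these splits were 2 higher and 10 lower in CK and 10 and 11 in EWT, with the median of all genes 0.31 and 0.38 higher. Relative to 0 h, the CK roots at 24_3 h had 8 genes higher and 13 lower, or 46.7% beside 26.1% (10.2% rose, 15.9% fell). In EWT at 24_3 h 8 were higher and 2 lower, or 22.2% beside 21.3% (9.13% rose, 12.1% fell). Levels below those before flooding were thus called for more genes in CK, and the difference between the cultivars was tested gene by gene with the interaction described next.

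**Figure D1:**
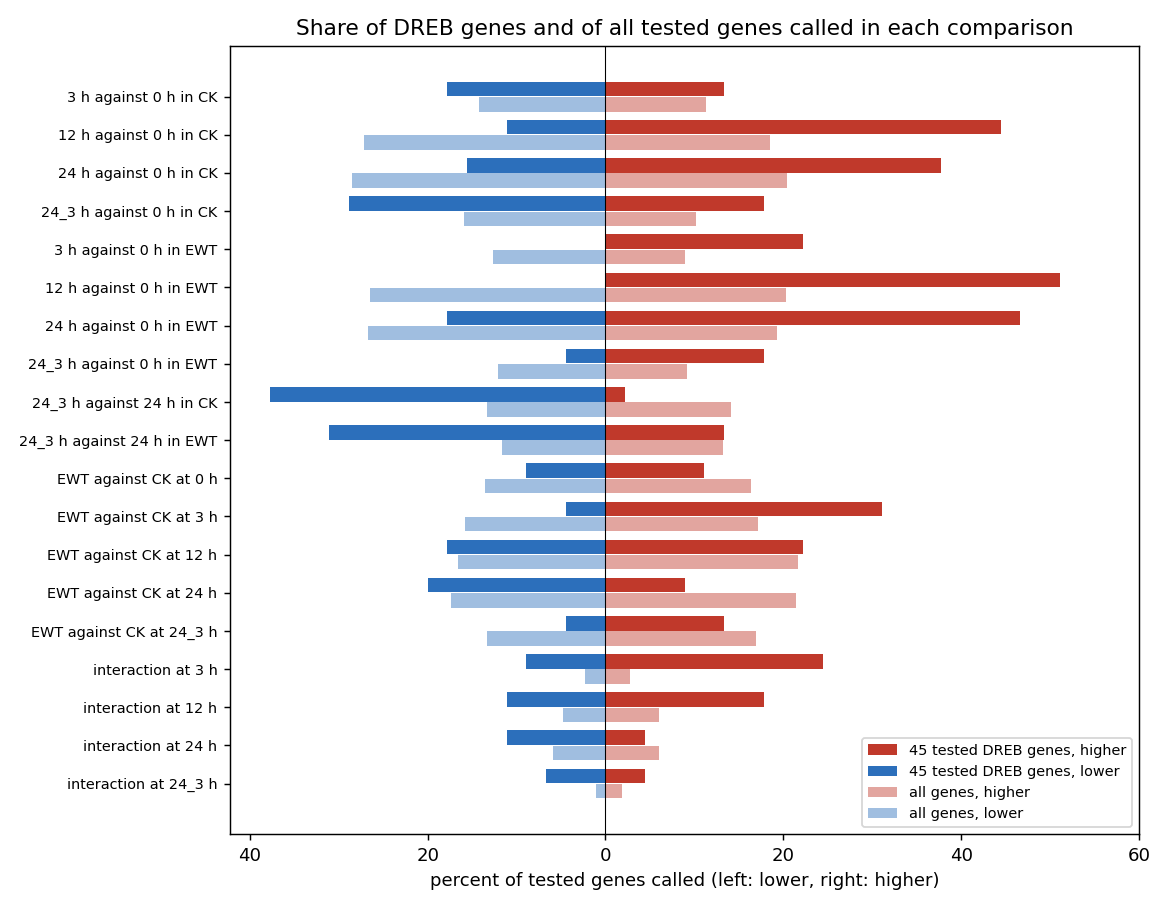
Percentage of tested genes called higher (red, to the right) or lower (blue, to the left) in each of the 19 comparisons, for the 45 tested DREB genes (full colour) and all 89517 tested genes (pale). At 12 h in EWT 23 DREB genes rose and none fell, and 15 differed between the cultivars in their change at 3 h.

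Whether the cultivars responded differently was tested as the change in EWT minus the change in CK from 0 h. At 3 h this interaction was called for 15 of the 45 genes, or 33.3% beside 5.05% of all genes tested. Of these, 11 were positive (2.77% of all genes were) and 4 negative (2.28%). At 12 h the share was 28.9% beside 10.8%, with 8 positive (5.97% of all genes) and 5 negative (4.83%). These calls include 6 DREB1 genes that would not have entered the test without the group where they were highest, each at 12 h, so that their entry was not independent of a difference there. At 24 h the share was 15.6% beside 12%, with 2 positive (6.07%) and 5 negative (5.91%). The 2 positive calls at 24 h and that of evm_TU_scaffold_7515_61 were also of such genes. Outside 12 h these reached 1 FPKM only in the same cultivar at 24 h, so that their calls at 24 h are no support either. At 24_3 h the share was 11.1% beside 2.94%, with 2 positive (1.83%) and 3 negative (1.11%). The share was furthest from that of all genes at 3 h. At 24_3 h the 5 calls became 10 without CK 24_3 h replicate 4, and in EWT at 3 h the 10 rises became 6 without EWT 0 h replicate 1 or 3 or without replicate 1, 2 or 4 of EWT at 3 h.

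Set directly against each other, the cultivars differed in no larger a share of the DREB genes than of genes at large at 0 h, 24 h and 24_3 h. Before flooding 5 genes were higher in EWT and 4 lower, or 20% beside 30% of all genes (16.4% higher, 13.6% lower). At 3 h 14 were higher and 2 lower, or 35.6% beside 33% (17.2% and 15.8%), and at 12 h 10 and 8, or 40% beside 38.2% (21.6% and 16.6%). The calls at 12 h include evm_TU_scaffold_1703_110, evm_TU_scaffold_1703_126, evm_TU_scaffold_798_6 and evm_TU_scaffold_7515_61. Without the group where each was highest, at 12 h, these would not have entered the test, so their calls there are no support. At 24 h 4 were higher and 9 lower, or 28.9% beside 38.8% (21.5% and 17.4%), and at 24_3 h 6 and 2, or 17.8% beside 30.2% (16.9% and 13.3%). The calls at 24 h include that of evm_TU_scaffold_8085_137, which would not have entered the test without EWT at 24 h and is no support. All the comparisons of a cultivar with its own start share the 0 h libraries, so they are given side by side only.

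**Figure D2:**
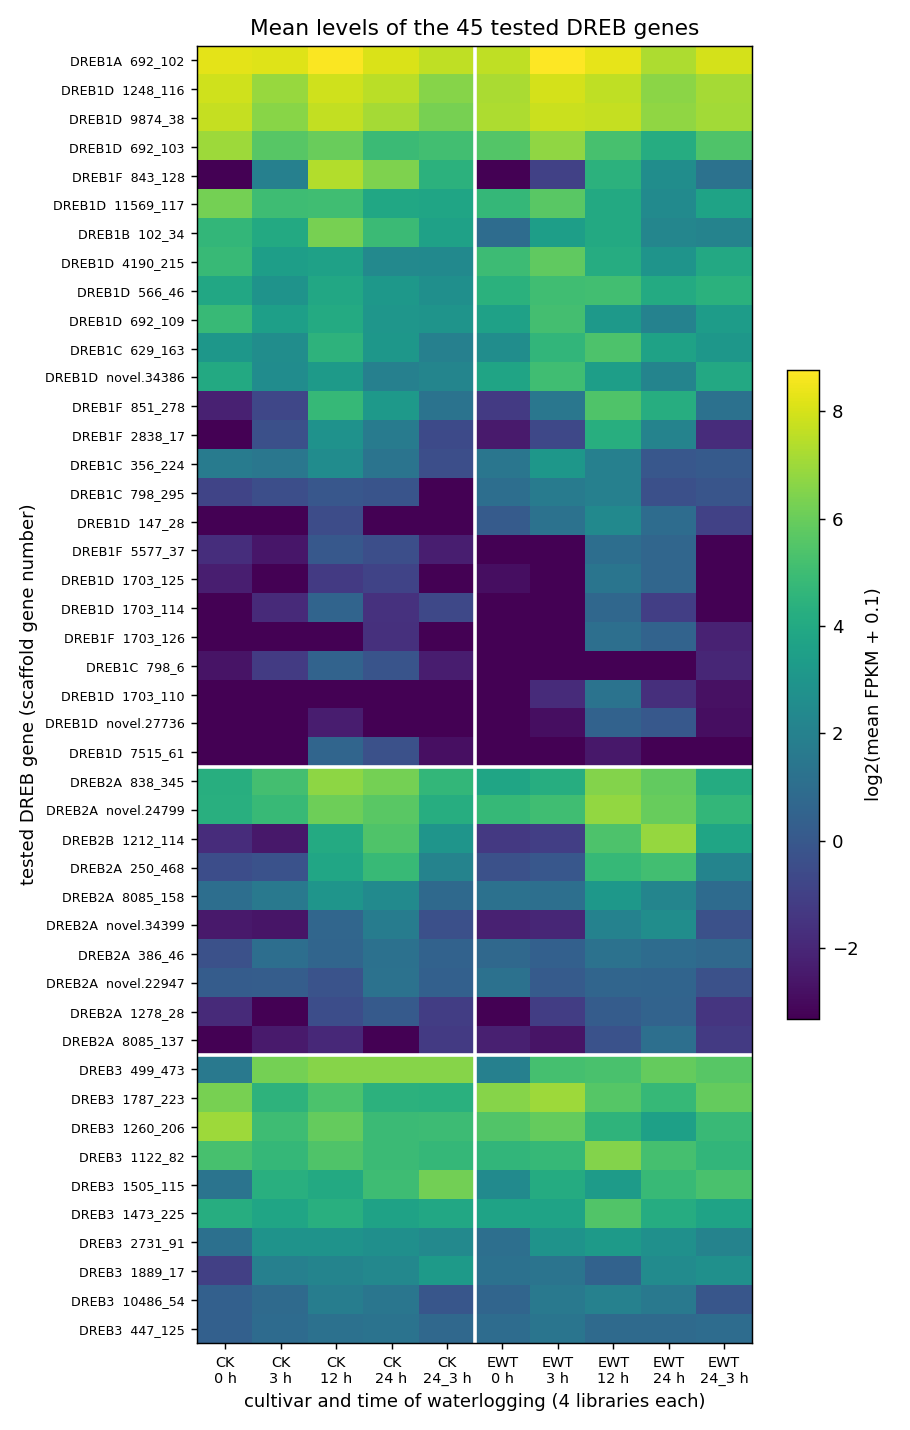
Group mean level of each of the 45 tested genes, as log2(mean FPKM + 0.1) on the colour scale, with genes in rows (25 DREB1, then 10 DREB2 and 10 DREB3, divided by white lines) and the 10 groups in columns. Few genes carry most of the signal, and the DREB2 rows brighten at 12 h and 24 h, where their summed level reached a median of 303 FPKM in EWT.

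DREB1 genes had the highest median summed level of the 3 subgroups in each of the 10 groups, from 459 FPKM in CK at 24_3 h to 1430 FPKM in CK at 12 h. The lead was smaller in EWT at 24 h, with 482 FPKM beside 304 FPKM for DREB2 and 194 FPKM for DREB3 genes. Most of the DREB1 level came from few genes, since over the 40 libraries the 3 highest held 52.3% to 80.1% of the summed DREB1 level (median 74.0%). The first is evm_TU_scaffold_692_102, the gene named DREB1A (CBF3 in Arabidopsis, a cold-induced activator), on chromosome 5 at 57908421 to 57909573 on the plus strand. In CK it stood at 254, 309.7, 323 and 353 FPKM at 0 h, at 314, 233, 365 and 234 at 3 h, at 255, 448, 464 and 496 at 12 h, at 312, 269, 261 and 239.9 at 24 h and at 125, 157, 225 and 281 at 24_3 h. In EWT it stood at 195, 226, 153 and 212 FPKM at 0 h, at 373, 443, 336 and 593 at 3 h, at 325, 430.1, 295 and 242 at 12 h, at 73, 85.8, 226 and 241 at 24 h and at 204, 286, 257 and 279 at 24_3 h. The EWT libraries at 3 h lay above all EWT libraries at 0 h, while the CK libraries of the same times overlapped. It rose in EWT at 3 h by 1.13 ± 0.29 on the log2 scale (SE, n = 4 and 4, limma adjusted p = 0.00262), a call lost without EWT 3 h replicate 4, where the change was 0.97. In CK the change was -0.13 ± 0.29, and the interaction of 1.26 ± 0.40 did not pass the limma test (adjusted p = 0.0608).

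The other abundant genes were named DREB1D, the form known in Arabidopsis for drought and abscisic acid. evm_TU_scaffold_1248_116 lies on chromosome 7 at 245523148 to 245523844 on the plus strand. Its CK libraries were at 182, 247, 249 and 277 FPKM at 0 h, at 134, 88, 154 and 101 at 3 h, at 126, 214, 289.7 and 336 at 12 h, at 185, 202, 180.3 and 162 at 24 h and at 58.8, 82, 97.6 and 138 at 24_3 h. Its EWT libraries were at 162, 179, 108 and 144 FPKM at 0 h, at 201, 276, 198 and 342 at 3 h, at 203, 246, 177 and 152 at 12 h, at 55.5, 63.3, 147 and 143 at 24 h and at 95.5, 139.6, 159 and 169.9 at 24_3 h. All CK libraries at 3 h lay below all CK libraries at 0 h, and all EWT libraries at 3 h lay above all EWT libraries at 0 h. The gene fell in CK by 1.02 ± 0.29 on the log2 scale (limma adjusted p = 0.00676), its change in EWT was 0.76 ± 0.29 (adjusted p = 0.0519), and the interaction was 1.78 ± 0.41 (adjusted p = 0.00631). The fall in CK sat at the 2-fold limit and was lost without any of CK 0 h replicates 2, 3 or 4 or CK 3 h replicates 2 or 4, where it came as low as -0.89.

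evm_TU_scaffold_9874_38, also named DREB1D, lies on chromosome 9 at 249285160 to 249285862 on the minus strand. In CK the level was at 165, 215, 218 and 238 FPKM at 0 h, at 101, 74.5, 131 and 91.6 at 3 h, at 98, 196, 237 and 266 at 12 h, at 167, 153, 118 and 119 at 24 h and at 54.5, 63.5, 86.3 and 108 at 24_3 h. In EWT the level was at 169, 184, 124 and 142 FPKM at 0 h, at 187, 250.3, 173 and 289 at 3 h, at 240.1, 236, 173 and 175 at 12 h, at 68.2, 80.5, 133 and 147 at 24 h and at 94.5, 136, 157 and 164 at 24_3 h. The lowest CK library of all was thus from after reoxygenation, and CK at 24_3 h lay below CK at 0 h without overlap. It fell in CK at 3 h by 1.09 ± 0.26 (limma adjusted p = 0.00144; without CK 3 h replicate 2 the change was -0.96 and the call was lost), and the interaction was 1.61 ± 0.37 (adjusted p = 0.00601). Its levels followed those of evm_TU_scaffold_1248_116 over the 40 libraries at r = 0.947, and evm_TU_scaffold_692_102 followed evm_TU_scaffold_1248_116 at r = 0.888; these points share their libraries.

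At 3 h some DREB1 genes moved apart in the cultivars. In CK 6 of the 25 tested DREB1 genes fell and 1 rose, beside 14.2% and 11.3% of all genes tested. In EWT 6 rose, beside 8.96%. The interaction was called for 9 of the 25, beside 5.05% of all genes. All 9 had a negative fitted change in CK and a positive one in EWT. The share of all genes with this pattern is not given here. The 9 calls share their libraries and are not independent. The largest difference was that of evm_TU_scaffold_102_34, named DREB1B (CBF1 in Arabidopsis), on chromosome 8 at 201288810 to 201289775, whose mean level went from 25.3 to 15.9 FPKM in CK and from 1.85 to 10.9 FPKM in EWT (interaction 3.37 ± 0.51 on the log2 scale, limma adjusted p = 4.81e-05). Its EWT level stayed below that of CK, and the gene was the furthest below CK at 0 h, with a difference of -3.93. evm_TU_scaffold_692_103, the next DREB1 gene on chromosome 5 beyond evm_TU_scaffold_692_102, fell in CK from a mean of 126 to 49.9 FPKM and went from 46.5 to 107 FPKM in EWT (interaction 2.51 ± 0.63, limma adjusted p = 0.0125). A further neighbour, evm_TU_scaffold_692_109, had an interaction of 2.92, a call lost without CK 0 h replicate 3 or 4, EWT 0 h replicate 3, CK 3 h replicate 2 or 4 or EWT 3 h replicate 4 (limma adjusted p = 0.0509 to 0.0788). The summed level of all DREB1 genes had a median of 1132 FPKM at 0 h and 629 FPKM at 3 h in CK, and 671 FPKM at 0 h and 1227 FPKM at 3 h in EWT. The cultivars thus started in the opposite order to the order they had at 3 h.

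**Figure D3:**
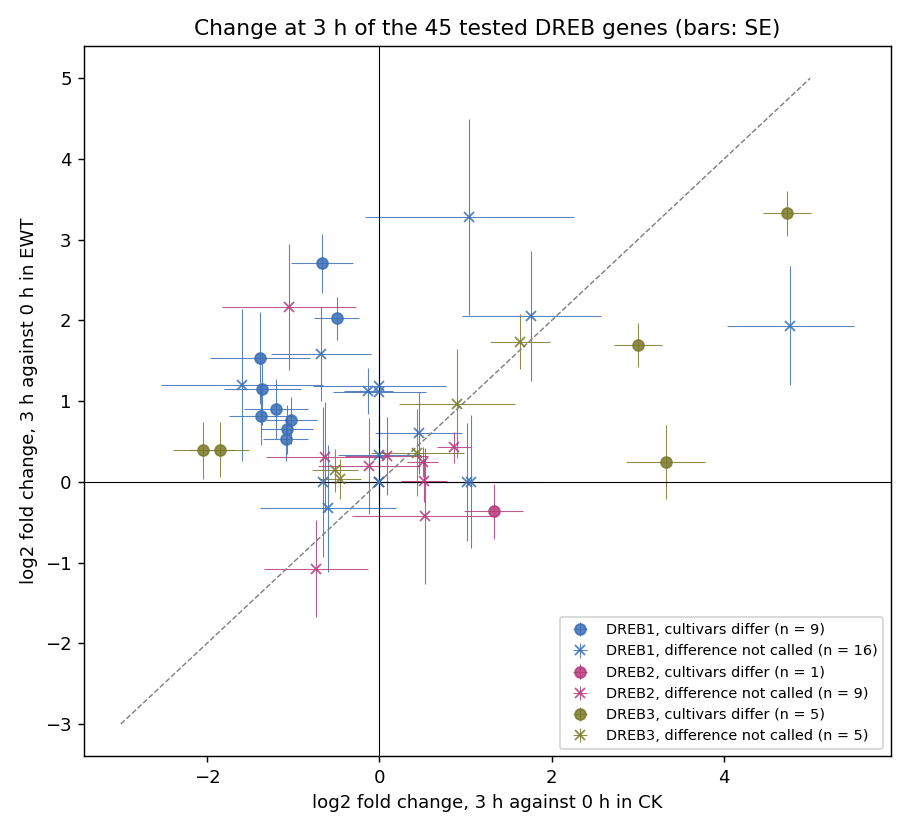
Fitted change from 0 h to 3 h (log2 of FPKM + 0.1, limma) of each of the 45 tested genes in CK (x axis) and EWT (y axis), coloured by subgroup, with bars for the SE and circles for the 15 genes whose interaction was called (crosses for the others). The 9 DREB1 circles lie where CK is negative and EWT is positive.

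At 12 h DREB1 genes rose in both cultivars, 9 up and 3 down in CK and 12 up and none down in EWT. Of all genes tested, 18.4% rose and 27.1% fell in CK, and 20.2% and 26.5% in EWT. The DREB1 rises include the 6 DREB1 genes that would not have entered the test without the 12 h group where they were highest. Of these, evm_TU_scaffold_798_6 and evm_TU_scaffold_7515_61 rose in CK and the others in EWT, and their rises at 12 h are no support. The 15 of the 45 genes called in both cultivars at 12 h all moved in the same direction. The share of all genes tested that did so is not given here, so this count is not read as a trait of the DREB genes. The steepest rises were those of 3 genes named DREB1F (DDF1 in Arabidopsis), each 291 bases long and without the Pfam AP2 domain or a family assignment. evm_TU_scaffold_843_128, on chromosome 19 at 40248148 to 40248438, had no fragment in any library at 0 h. It stood at 225, 202, 161 and 68 FPKM in CK and at 17.3, 20.9, 26.6 and 23 FPKM in EWT at 12 h. It was at least 471-fold higher in CK and at least 90.6-fold higher in EWT than a floor of 3 fragments over the 4 libraries of 0 h. All CK libraries lay above all EWT libraries at 12 h, and the EWT level was lower by -2.78 ± 0.74 on the log2 scale (limma adjusted p = 0.00231).

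evm_TU_scaffold_851_278, on chromosome 21 at 24569145 to 24569435, was listed in CK at 0, 0.454, 0 and 0 FPKM at 0 h and at 43.7, 34.2, 28.2 and 4.64 FPKM at 12 h. The 113 fragments at 12 h against 1 at 0 h gave a ratio of 224, with a 95% counting interval of 39.4 to 8933 that covers counting error only. The EWT values were at 0, 0.951, 0 and 0.332 FPKM at 0 h and at 38.8, 28.4, 36.9 and 70.2 FPKM at 12 h. evm_TU_scaffold_2838_17, on chromosome 20, went from no fragment at 0 h to 10.7, 8.56, 4.7 and 4.64 FPKM at 12 h in CK, at least 20.5-fold higher. In EWT it went from 0, 0, 0 and 0.332 FPKM to 18.2, 14.5, 21.2 and 22.4 FPKM, a ratio of 234 (41.2 to 9313). The groups did not overlap for any of these genes. The first of them was higher in CK, and the other two were not called between the cultivars at 12 h.

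The few DREB1 genes that fell at 12 h in CK were again abundant ones. evm_TU_scaffold_4190_215 (DREB1D, chromosome 23) went from 18.5, 28.9, 31.1 and 35.8 FPKM at 0 h to 7.14, 13.5, 11.8 and 15.7 FPKM in CK. evm_TU_scaffold_11569_117 (DREB1D, chromosome 22) went from 45.9, 78.5, 78.4 and 94.8 FPKM to 17.3, 41.3, 28.1 and 44.8 FPKM. Neither gene's groups overlapped. The falls were 1.26 and 1.22 on the log2 scale, and the second was lost without CK 12 h replicate 1, where the change was -0.95.

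Some groups of neighbours held abundant genes, such as evm_TU_scaffold_692_103 on chromosome 5, but those on chromosomes 26 and 27 summed to low levels. The 20 genes of the chromosome 27 group summed to 32 fragments in CK and 162 in EWT at 12 h, with a median of 3.74 and 10.7 FPKM per library, against 4 and 3 fragments at 0 h. The 9 genes of the chromosome 26 group had a median sum of 1.98 FPKM in CK and 9.94 FPKM in EWT at 12 h. evm_TU_scaffold_1703_110 (DREB1D, chromosome 27) had no fragment in any CK library at 12 h and stood at 1.17, 3.3, 1.94 and 2.86 FPKM in EWT, 32 fragments in all and at least 7.10-fold higher. evm_TU_scaffold_1703_126 (DREB1F, chromosome 27) stood at 0.45, 0.879, 4.84 and 1.98 FPKM in EWT at 12 h and at 0 in CK, which made it at least 5.41-fold higher. Copies with more signal in CK also occurred. evm_TU_scaffold_7515_61 (DREB1D, chromosome 25) stood at 2.32, 0.829, 1.23 and 1.35 FPKM in CK at 12 h, against 0, 0, 0.297 and 0 FPKM in EWT, a ratio of 0.0501 with a counting interval of 0.00119 to 0.329. evm_TU_scaffold_798_6 (DREB1C, chromosome 23) stood at 2.15, 2.39, 0.473 and 0.389 FPKM in CK and had no fragment in EWT, at least 5.54-fold lower. The values of these 4 copies rest on fewer than 40 fragments a group. All 4 would not have entered the test without the group where they were highest, at 12 h, so that their differences at that time are no support for a cultivar difference.

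Over the whole course, 6 of the 25 tested DREB1 genes had their highest group mean in CK at 0 h, 16 at 12 h and 2 at 24 h, and 1 had no fragment in CK. In EWT the peak was at 3 h for 9 genes, at 12 h for 15 genes and after reoxygenation for 1. The peaks at 12 h include the 6 DREB1 genes that would not have entered the test without the 12 h group where they were highest. Their peaks there were set by the filter and are no support. Some peaks rest on few fragments, such as that of evm_TU_scaffold_7515_61 in EWT on 1. No share of peak times over all genes tested is given beside these counts. After reoxygenation 10 DREB1 genes fell and none rose relative to 24 h in CK, whereas 6 fell and 4 rose in EWT. Of all genes tested, 13.3% fell and 14.1% rose in CK, and 11.7% and 13.3% in EWT. The 4 DREB1 genes that rose in EWT were evm_TU_scaffold_692_109 by 2.06, evm_TU_scaffold_692_103 by 1.75, evm_TU_scaffold_11569_117 by 1.32 and evm_TU_scaffold_4190_215 by 1.09 on the log2 scale. The first of these was 1.11 without EWT 24 h replicate 2, and its call was then lost (limma adjusted p = 0.0729). Relative to 0 h, 11 DREB1 genes were lower and 1 was higher in CK at 24_3 h, including evm_TU_scaffold_1248_116 at -1.40 ± 0.29 and evm_TU_scaffold_9874_38 at -1.46 ± 0.26 (limma adjusted p = 0.000273 and 3.76e-05). In EWT 2 were lower and 2 higher. Of all genes tested, 15.9% were lower and 10.2% higher in CK, and 12.1% and 9.13% in EWT. The 2 lower in EWT, evm_TU_scaffold_11569_117 at -1.07 and evm_TU_scaffold_4190_215 at -1.02, sat at the 2-fold limit. Each call was lost without any of several single libraries (limma adjusted p = 0.121 to 0.134 and 0.0563 to 0.163).

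**Figure D4:**
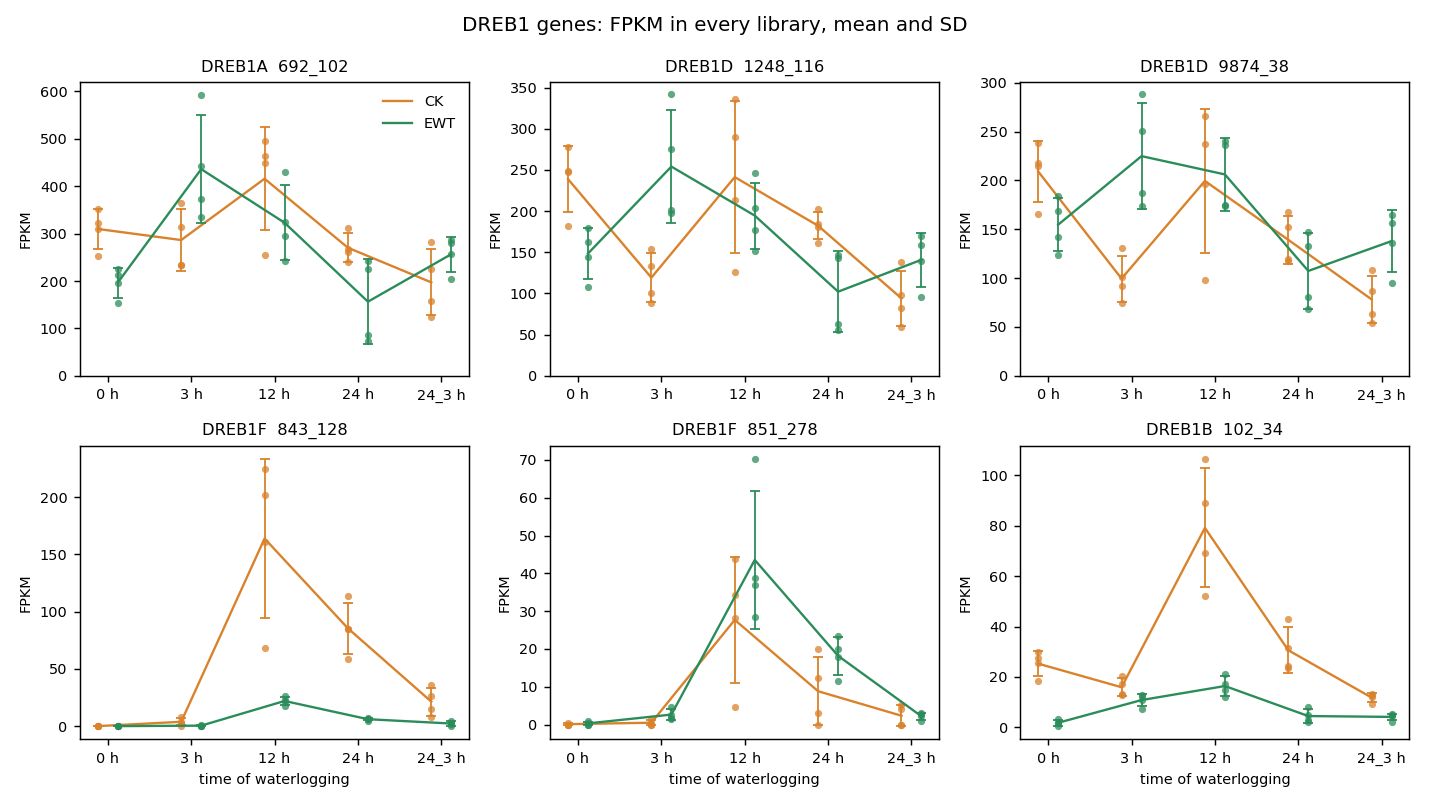
Level of 6 DREB1 genes in each of the 40 libraries (points, FPKM on a linear axis) by time for CK (orange) and EWT (green), with lines through the group means and bars for the SD. In evm_TU_scaffold_1248_116 and evm_TU_scaffold_9874_38 the 4 CK libraries at 3 h lie below those at 0 h, and in evm_TU_scaffold_843_128 every library at 0 h is at 0 FPKM.

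The DREB2 genes, the branch known for dehydration and heat, were raised under water in both cultivars and lower again after reoxygenation. Of the 10 tested, 6 rose in CK and 7 in EWT at 12 h, beside 18.4% and 20.2% of all genes tested. At 24 h 7 and 8 rose, beside 20.4% and 19.3%. None of the 10 fell at 3 h, 12 h, 24 h or 24_3 h against 0 h in either cultivar. At an unadjusted p under 0.05, 1 was lower at 24_3 h in EWT, which was called with precision weights, and 0 in the others. At 3 h evm_TU_scaffold_386_46 rose in CK and evm_TU_scaffold_1278_28 in EWT, both named after rice DREB2A. On reoxygenation 6 fell in CK and 8 in EWT, beside 13.3% and 11.7% of all genes, and none rose, beside 14.1% and 13.3%. At 24_3 h 3 of the 10 were still called higher than at 0 h in both cultivars. Among them, evm_TU_scaffold_1212_114 was higher by 4.63 (log2) in CK and 5.02 in EWT, and evm_TU_scaffold_250_468 by 2.57 and 2.56. The rises at 24 h in EWT include evm_TU_scaffold_8085_137, which would not have entered the test without that group. The median change of the 10 DREB2 genes at 12 h in EWT was 2.39 on the log2 scale, beside -0.12 over all genes tested. In CK it was 1.86 without evm_TU_scaffold_8085_137, which had 1 fragment at 12 h and 0 at 0 h, beside -0.17 over all genes tested. No DREB2 gene had an interaction called at 12 h, 24 h or 24_3 h, although 3 at 24 h and 0 at 12 h and 24_3 h had an unadjusted p under 0.05, and precision weights gave no call either. At 3 h evm_TU_scaffold_386_46 had a negative one, of -1.69 ± 0.48 (limma adjusted p = 0.0311). This call was lost without CK 0 h replicate 1, 2 or 4, EWT 0 h replicate 3, CK 3 h replicate 1, 2 or 4 or EWT 3 h replicate 2 (adjusted p = 0.0516 to 0.0889). The summed DREB2 level had a median of 46.8 FPKM in CK and 50.1 FPKM in EWT at 0 h, and of 238 and 303 FPKM at 12 h, and returned to 57.1 and 71.7 FPKM at 24_3 h.

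evm_TU_scaffold_838_345, named DREB2A, lies on chromosome 22 at 239166052 to 239168655 on the plus strand. The CK values were at 22.2, 21.7, 18.8 and 14.7 FPKM at 0 h, at 33.4, 41.9, 30.5 and 34.5 at 3 h, at 123, 119, 108 and 68.1 at 12 h, at 69, 79.8, 67.2 and 91.2 at 24 h and at 32.4, 25.8, 22.9 and 19.7 at 24_3 h. In EWT it stood at 11.4, 13.1, 14.4 and 15.8 FPKM at 0 h, at 15.6, 19, 16.3 and 23.2 at 3 h, at 90.1, 73.5, 104 and 97.7 at 12 h, at 64.1, 65.9, 67.1 and 37.9 at 24 h and at 18.8, 16.1, 15.4 and 18 at 24_3 h. Every library at 12 h and 24 h lay above every library of its cultivar at 0 h. The gene rose at 12 h by 2.41 ± 0.19 in CK (limma adjusted p = 8.33e-13) and by 2.73 ± 0.19 in EWT (adjusted p = 2.86e-14), and the interaction of 0.32 ± 0.27 was not called (adjusted p = 0.539). On reoxygenation it fell by 1.62 ± 0.19 in CK and by 1.74 ± 0.19 in EWT.

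The DREB2A gene of next highest level lies on chromosome 24 at 240453399 to 240456078, among 4 DREB2A neighbours. In CK it stood at 20.2, 22.7, 21 and 15.5 FPKM at 0 h, at 25.9, 32.3, 26.2 and 27.4 at 3 h, at 73.3, 84.8, 71.7 and 42.6 at 12 h, at 43.7, 55.8, 43 and 58.6 at 24 h and at 22.2, 19.1, 18.3 and 14.8 at 24_3 h. Its EWT libraries were at 23.7, 26.6, 32.5 and 28.3 FPKM at 0 h, at 30.5, 35.9, 28.2 and 37.1 at 3 h, at 120.0, 94.2, 114 and 115 at 12 h, at 68.8, 62.1, 72.9 and 44.2 at 24 h and at 30.1, 19.6, 26 and 26.7 at 24_3 h. It followed the same course, with a rise at 12 h of 1.74 ± 0.18 in CK and 2.00 ± 0.18 in EWT (limma adjusted p = 6.26e-10 and 2.18e-11). The likest DREB gene was evm_TU_scaffold_8085_158, another DREB2A gene, at r = 0.914 over the 40 libraries.

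The sole gene named DREB2B, evm_TU_scaffold_1212_114, had the widest range of the DREB2 genes. It lies on chromosome 10 at 14257885 to 14258784 on the minus strand and held neither the Pfam AP2 domain nor a family assignment. Its CK libraries were at 0.315, 0.44, 0 and 0 FPKM at 0 h, at 0, 0.29, 0 and 0 at 3 h, at 26.5, 21.2, 18.5 and 1.5 at 12 h, at 40.2, 56, 21.4 and 56 at 24 h and at 17.5, 3.09, 8.62 and 1.63 at 24_3 h. In EWT the level was at 0.39, 0.513, 0.112 and 0.214 FPKM at 0 h, at 0.419, 0.374, 0.301 and 0.372 at 3 h, at 58.4, 36.1, 34 and 38.5 at 12 h, at 165, 102, 116 and 75.2 at 24 h and at 14.3, 5.11, 20.9 and 14 at 24_3 h. It was near 0 through 3 h and high from 12 h, and at 12 h and 24 h every EWT library lay above every CK library. It rose at 24 h in EWT by 8.19 ± 0.68 on the log2 scale (limma adjusted p = 2.12e-12). At 12 h the difference of EWT from CK was 1.84 ± 0.68 (adjusted p = 0.0269), without CK 12 h replicate 4 it was 0.90 (adjusted p = 0.253), and without EWT 12 h replicate 1 it was 1.67 (adjusted p = 0.0718). At 24 h it was 1.44 ± 0.68 (adjusted p = 0.0849), and no interaction was called (adjusted p = 0.568 at 12 h and 0.739 at 24 h).

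The DREB gene whose levels were most like it was evm_TU_scaffold_250_468, at r = 0.949. Its group means in CK were 0.621 FPKM before flooding, 14 and 27.9 FPKM after 12 h and 24 h under water, and 4.15 FPKM after reoxygenation. In EWT they were 0.704, 27.1, 34.4 and 4.31 FPKM. Within groups, CK 12 h replicate 4 was the lowest of its 4 libraries for 8 of the 10 DREB2 genes, and EWT 24 h replicate 4 was the lowest for 7 of 10.

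**Figure D5:**
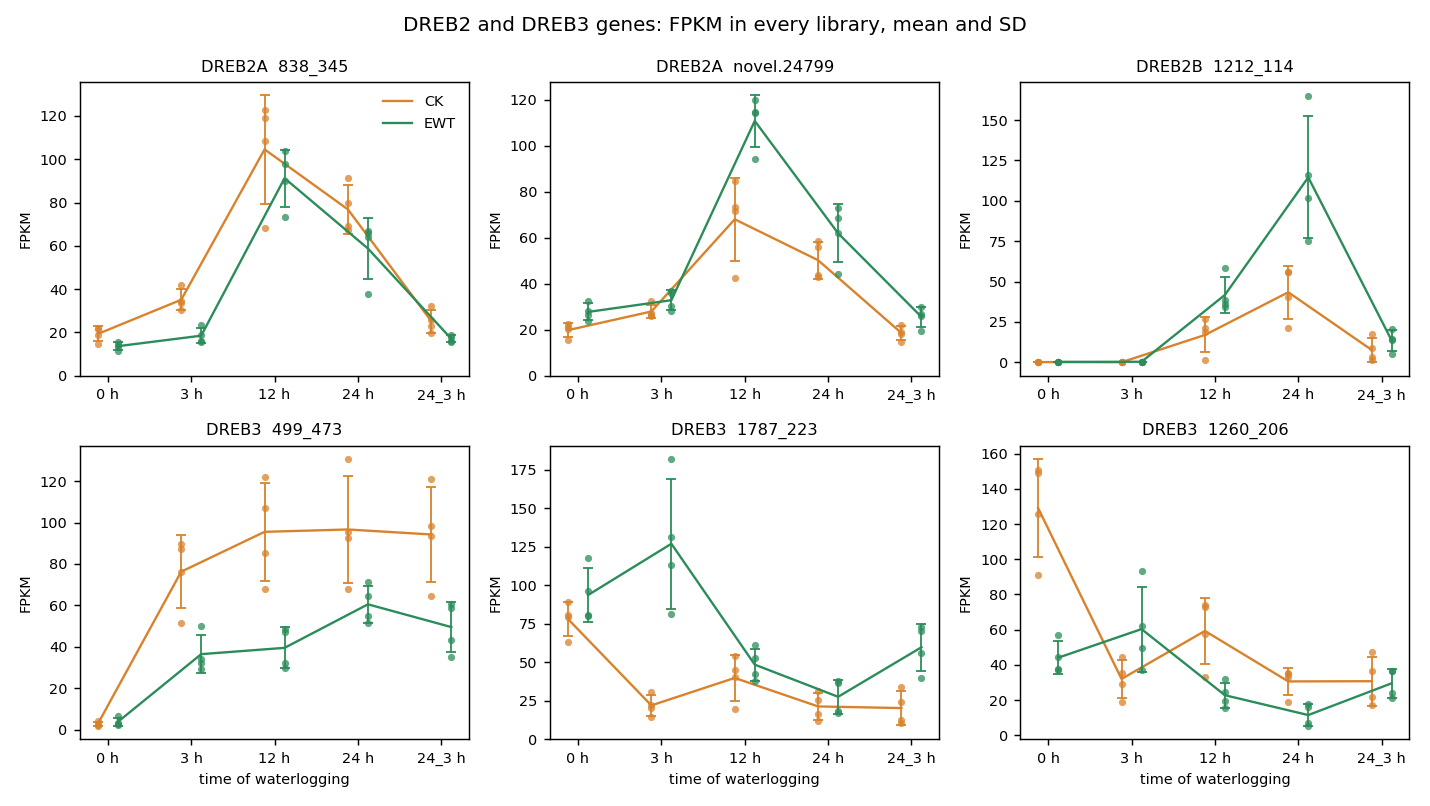
Level of 3 DREB2 and 3 DREB3 genes in each of the 40 libraries (points, FPKM on a linear axis) by time for CK (orange) and EWT (green), with lines through the group means and bars for the SD. evm_TU_scaffold_1212_114 reaches 165 FPKM in EWT at 24 h and evm_TU_scaffold_499_473 is at 29.4 FPKM or more in every library from 3 h on.

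The DREB3 genes, named after the factor also called TINY2 in Arabidopsis, divided into some that rose within 3 h and others that fell in CK at that time. At 3 h 4 of 10 rose and 2 fell in CK, and 3 rose and none fell in EWT. Of all genes tested, 11.3% rose and 14.2% fell in CK, and 8.96% and 12.7% in EWT. The 3 genes of the whole family called in both cultivars at 3 h were all DREB3 genes, evm_TU_scaffold_499_473, evm_TU_scaffold_1505_115 and evm_TU_scaffold_2731_91, and all rose in both. The share of all genes tested that were called in both is not given here. evm_TU_scaffold_499_473 lies on chromosome 1 at 89247930 to 89248706 on the plus strand. In CK the level was at 2.37, 1.87, 4.04 and 2.98 FPKM at 0 h, at 76.4, 89.9, 87.5 and 51.4 at 3 h, at 107, 122, 85.2 and 68 at 12 h, at 95.7, 92.4, 131 and 68 at 24 h and at 93.3, 121, 98.3 and 64.6 at 24_3 h. The EWT values were at 6.77, 3.44, 2.59 and 2.36 FPKM at 0 h, at 29.4, 34.4, 32.1 and 50.1 at 3 h, at 32.4, 29.7, 48.8 and 47.1 at 12 h, at 54.7, 64.7, 71.1 and 51.7 at 24 h and at 43.5, 35.3, 60.7 and 58.7 at 24_3 h. Every library from 3 h on lay above every library of 0 h, and the gene was not called on reoxygenation in either cultivar. The rise at 3 h was 4.73 ± 0.28 in CK (limma adjusted p = 3.60e-16) and 3.33 ± 0.28 in EWT (adjusted p = 5.96e-12). The interaction was -1.40 ± 0.39 at 3 h (adjusted p = 0.0264), and without CK 0 h replicate 2, EWT 0 h replicate 1, CK 3 h replicate 2 or EWT 3 h replicate 1 its adjusted p was 0.0599 to 0.0785.

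evm_TU_scaffold_1505_115, on chromosome 2, was the only gene that rose on reoxygenation in CK, by 1.17 on the log2 scale. It went from 3.21, 1.61, 1.37 and 3.43 FPKM at 0 h to 74.9, 89, 71.1 and 58.6 FPKM at 24_3 h in CK, and from 5.66, 4.19, 5.09 and 6.57 FPKM to 39.6, 34.1, 40.5 and 41.1 FPKM in EWT. Its rise was smaller in EWT, with an interaction of -2.12 ± 0.39 at 24_3 h (limma adjusted p = 0.000902). EWT was higher than CK before flooding and lower after it, without overlap at either time.

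evm_TU_scaffold_1787_223 lies on chromosome 24 at 193379344 to 193380091 on the minus strand. The CK values were at 62.9, 79.6, 80.7 and 89.3 FPKM at 0 h, at 22.4, 14.6, 30.7 and 20.6 at 3 h, at 19.5, 40.7, 45 and 54.4 at 12 h, at 25.8, 11.8, 16.6 and 31.3 at 24 h and at 10.5, 12.7, 24.1 and 34.1 at 24_3 h. In EWT it stood at 96.5, 117, 79.9 and 80.6 FPKM at 0 h, at 113, 131, 81.2 and 182 at 3 h, at 38.2, 60.9, 52.8 and 42.1 at 12 h, at 18.7, 17.2, 37.9 and 36.8 at 24 h and at 40.1, 70.5, 55.9 and 72.7 at 24_3 h. In CK every flooded library lay below those of 0 h. In EWT the libraries of 0 h and 3 h overlapped, and those of 12 h and 24 h lay below those of 0 h. At 3 h it fell in CK by 1.86 ± 0.34 (limma adjusted p = 4.90e-05), the change in EWT was 0.40 ± 0.34, and the interaction was 2.25 ± 0.48 (adjusted p = 0.00292). At 24 h the interaction was 0.12 ± 0.48 and was not called (limma adjusted p = 0.917).

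evm_TU_scaffold_1260_206, on chromosome 22 at 192694474 to 192695299, behaved alike. In CK it stood at 91.1, 125, 149 and 150.4 FPKM at 0 h, at 29.2, 18.9, 44.7 and 35.4 at 3 h, at 33.4, 72.7, 57.3 and 73.8 at 12 h, at 33.3, 19, 35.6 and 34.7 at 24 h and at 17.2, 21.6, 36.6 and 47.6 at 24_3 h. Its EWT libraries were at 44.6, 57.2, 36.9 and 37.7 FPKM at 0 h, at 49.4, 61.8, 36.9 and 93.2 at 3 h, at 19.5, 31.8, 24.5 and 15.6 at 12 h, at 6.84, 5.48, 16.4 and 17.6 at 24 h and at 21.3, 36.6, 24 and 36.4 at 24_3 h. At 0 h all EWT libraries lay below all CK libraries. At 3 h the fall in CK was 2.04 ± 0.35 (limma adjusted p = 1.99e-05) and the interaction was 2.44 ± 0.50 (adjusted p = 0.00188). At 24 h the interaction was 0.007 ± 0.50 and was not called (limma adjusted p = 0.996). The falls of this gene and of evm_TU_scaffold_1787_223 in CK at 12 h, by 1.16 and 1.05, were lost without CK 12 h replicate 1, and that of evm_TU_scaffold_1787_223 also without CK 0 h replicate 4. On reoxygenation both rose in EWT, by 1.49 and 1.16 on the log2 scale, the second call being lost without EWT 24 h replicate 2 (0.97).

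evm_TU_scaffold_1889_17, a shorter DREB3 gene on chromosome 3 at 82067610 to 82068161, had negative interactions instead. It went from 0.257, 0.717, 0.569 and 0 FPKM at 0 h to 3.93, 6.52, 4.46 and 2.04 FPKM at 12 h in CK, and from 3.65, 2.34, 1.28 and 1.4 FPKM to 1.3, 0.848, 1.08 and 1.91 FPKM in EWT. The interaction was -4.07 ± 0.64 on the log2 scale at 12 h and -3.08 ± 0.64 at 3 h (limma adjusted p = 2.62e-05 and 0.00222). It was higher in EWT than in CK before flooding, by 2.48, where the CK level rested on 6 fragments. EWT and CK did not differ by call at 3 h (-0.60) or 24_3 h (-0.51). Group means reached 4.91 and 9.57 FPKM at 24 h and 24_3 h in CK, and 5.60 and 6.70 FPKM in EWT. The gene thus peaked at 24_3 h in both cultivars. In EWT its rise from 0 h to 24_3 h was called, at 1.68 ± 0.45 (limma adjusted p = 0.00487).

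Another pair of DREB3 genes rose in EWT at 12 h and were not called in CK. evm_TU_scaffold_1122_82, on an unplaced scaffold, stood at 31.1, 33.4, 36.3 and 48.7 FPKM at 0 h and at 61.9, 48.1, 43.7 and 17 FPKM at 12 h in CK, and at 32.7, 20.6, 24.8 and 21.4 FPKM and then 84.7, 76.1, 104 and 97.2 FPKM in EWT. evm_TU_scaffold_1473_225, on chromosome 2, stood at 14.7, 18.2, 16.5 and 23.9 FPKM and then 25.9, 20.4, 19.1 and 13.5 FPKM in CK, and at 15.8, 10.7, 11.8 and 12.2 FPKM and then 34.9, 44.4, 52 and 48.2 FPKM in EWT. For both genes every EWT library at 12 h lay above every other library of this comparison, while in CK the groups of 0 h and 12 h overlapped. The rises in EWT were 1.87 ± 0.26 and 1.82 ± 0.25 on the log2 scale, the changes in CK were 0.07 and 0.09, and the interactions were 1.81 ± 0.37 and 1.73 ± 0.35 (limma adjusted p = 0.000919 and 0.000722).

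The 2 genes named TINY were close to silent. evm_TU_scaffold_5271_78, on chromosome 20 at 188331315 to 188331941, had 30 fragments in all, spread over 14 libraries, with a highest level of 1.44 FPKM in CK 24_3 h replicate 4. evm_TU_scaffold_92_138, on chromosome 21 at 208654578 to 208654919, had none in any library. Of the 65 genes below the entry filter, 13 were at 0 in all 40 libraries, and the others reached at most 3.57 FPKM. The untested genes were 46 DREB1, 9 DREB2 and 8 DREB3 genes beside the 2 TINY genes, and all 5 genes of each of the forms DREB1E and DREB2D were among them. Summed over the untested genes the fragments were most numerous in EWT at 12 h, with 146.

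Around the DREB genes, 114 genes named for known regulators of DREB factors were followed, 78 of them tested. These were CAMTA activators of CBF transcription, the bHLH factor ICE1, the ligases HOS1 and SIZ1, and DRIP2 and BPM, which act on DREB2A protein. The search text also took in 6 genes of HOS15, a chromatin repressor. At 3 h 6 rose and 6 fell in CK (15.4% called beside 25.5% of all genes) and 4 rose and 4 fell in EWT (10.3% beside 21.6%). At 12 h 5 rose and 20 fell in CK (32.1% beside 45.6%) and 8 rose and 27 fell in EWT (44.9% beside 46.8%). At 24 h 6 rose and 28 fell in CK (43.6% beside 49%) and 7 rose and 22 fell in EWT (37.2% beside 46%). The list was called no more often than genes at large at any of these times. Within the list, HOS1 was lower at 12 h and 24 h in both cultivars for 4 of 4 genes, beside 26.5% to 28.6% of all genes. ICE1 was higher at 12 h for 5 of 5 tested genes in EWT and 2 of 5 in CK, beside 20.2% and 18.4% of all genes. In Arabidopsis HOS1 marks ICE1 protein for degradation. Protein was not measured here, and a link between these 2 results was not tested. evm_TU_scaffold_382_129, named CAMTA4, went from 13.2 ± 0.351 FPKM (SD, n = 4) to 49.2 ± 3.03 FPKM at 3 h in CK and from 9.16 ± 0.990 to 30.3 FPKM in EWT, rises of 1.89 and 1.72 on the log2 scale. evm_TU_scaffold_1269_260, named BPM2, stood at group means of 17.4 to 29.5 FPKM and was called in no comparison.

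A second list held 49 genes, 41 tested, named for stress genes taken as possible DREB targets. These were COR413, COR27, galactinol synthase 2, the heat factor HSFA3 and LTI65. Whether DREB factors act on them was not tested, and the list is no measure of DREB activity. No gene of these annotations was matched as a dehydrin. At 3 h 4 rose and 14 fell in CK (43.9% called beside 25.5% of all genes), and 5 rose and 18 fell in EWT (56.1% beside 21.6%), most of them galactinol synthase 2 genes, of which 13 of 20 fell in CK and 16 of 20 in EWT. At 12 h 13 rose and 8 fell in CK (51.2% beside 45.6%, with 18.4% of all genes higher and 27.1% lower) and 15 rose and 7 fell in EWT (53.7% beside 46.8%, with 20.2% higher and 26.5% lower). HSFA3, the best known target of DREB2A, rose in 8 of 8 tested genes at 12 h and at 24 h in both cultivars, and 7 fell in CK and 8 in EWT on reoxygenation. evm_TU_scaffold_657_315, the HSFA3 gene with the highest level, went from 1.33 ± 0.720 FPKM at 0 h to 91.3 ± 39.0 FPKM at 12 h and 112 ± 19.2 FPKM at 24 h in CK (SD, n = 4), and to 159 ± 51.4 and 161 ± 43.9 FPKM in EWT. Its change at 12 h in EWT was 5.85 on the log2 scale. COR27, a clock-linked cold gene, rose in 4 of 6 tested genes in CK and 2 of 6 in EWT at 3 h. LTI65, an abscisic acid and drought gene, rose in 3 of 3 genes at 3 h and 12 h in EWT, and the interaction was called for 3 of 3 at 3 h. evm_TU_scaffold_124_147, a COR413 gene, went from 162 to 78.7 FPKM in CK between 0 h and 24_3 h and from 140 to 75.3 FPKM in EWT, with changes of -1.03 in CK (called) and -0.89 in EWT (not called).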

How the data were processed

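Root poly(A) RNA of 40 libraries was sequenced. Per the labels and the methods of the study, reads were trimmed with fastp, aligned with HISAT2 2.0.5 and counted with featureCounts 1.5.0-p3. The authors deposited FPKM values, with gene lengths, positions and Swiss-Prot names. The genome build, the strand setting and the treatment of multiply mapped reads are not given in the sources used here. Fragments were recovered from the FPKM values and gene lengths, as 100% of values were whole within 0.01. They served for depth, floors and counting intervals (95%, counting error only), and no count model was fitted. The table's per-comparison results were not used.

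Libraries were grouped by their labels. Genes reaching 1 FPKM in 4 or more libraries were kept, and log2(FPKM + 0.1) was fitted with limma 3.58.1 in R 4.3.3, with 10 group means over the 40 libraries and a mean-variance trend. Genes with an adjusted p of at most 0.05 over 89517 genes and a fold of at least 2 were called. Named genes were the 3 of highest mean level in each subgroup, the 2 largest called rises and falls of each comparison, and 2 of highest level in each pathway list; others named here were chosen after their values were seen. The members, lists and tests were chosen with earlier results of these data known. The fit was tested on simulated data. Alternatives were other pseudocounts (1 and 0.01), no filter, a replicate block, precision weights, library sizes from all counted fragments, unadjusted p-values, only the groups compared, and leaving out each library. No sequences of these genes were used here.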

Additional observations from a re-analysis of the deposited data

Results flagged for a closer look

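Within groups, 113 gene and group combinations of the named genes were checked for a library far from the others, and 2 stood out, where chance alone gives about 1 in 20. In EWT at 24 h the lowest library for evm_TU_scaffold_838_345 (DREB2A) was at 37.9 FPKM, against 64.1 to 67.1 FPKM in the others. In CK at 24 h the lowest library for evm_TU_scaffold_1260_206 (DREB3) was at 19 FPKM, against 33.3 to 35.6 FPKM. A check for a single library does not find a split within a group. In EWT at 24 h replicates 1 and 2 lay below 3 and 4 for evm_TU_scaffold_692_102, evm_TU_scaffold_1248_116, evm_TU_scaffold_1787_223 and evm_TU_scaffold_1260_206. evm_TU_scaffold_499_473 and evm_TU_scaffold_838_345 did not split so. The part of this in the EWT changes on reoxygenation was not tested.

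Several named genes changed differently in the cultivars by the interaction test of limma (EWT change less CK change, log2 scale, n = 4 libraries a group). At 3 h it was 3.37 for evm_TU_scaffold_102_34, 2.92 for evm_TU_scaffold_692_109, 1.78 for evm_TU_scaffold_1248_116 and 1.61 for evm_TU_scaffold_9874_38, all DREB1 genes. It was 2.44 for evm_TU_scaffold_1260_206, 2.25 for evm_TU_scaffold_1787_223, -1.40 for evm_TU_scaffold_499_473 and -3.08 for evm_TU_scaffold_1889_17 among DREB3 genes, and -1.69 for evm_TU_scaffold_386_46, a DREB2 gene. The calls for evm_TU_scaffold_692_109, evm_TU_scaffold_499_473 and evm_TU_scaffold_386_46 did not hold when single libraries were left out, which was so for 6, 4 and 8 libraries.

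At 12 h the interaction was 4.50 for evm_TU_scaffold_1703_110, 3.94 for evm_TU_scaffold_1703_126 and -3.35 for evm_TU_scaffold_7515_61, which rest on few fragments, so that these fitted values are no bounds. These 3 genes would not have entered the test without the group where they were highest, at 12 h, so that their calls at that time carry no weight. It was -1.61 for evm_TU_scaffold_499_473 and -4.07 for evm_TU_scaffold_1889_17. At 24 h it was 3.13 for the DREB1D gene on chromosome 26 at 215344795 to 215345540, 2.88 for evm_TU_scaffold_1703_126, -2.70 for evm_TU_scaffold_798_295 and -3.77 for evm_TU_scaffold_843_128, and the call for evm_TU_scaffold_1703_126 was lost without CK 24 h replicate 1, 2 or 3, where it was 2.60. The first 2 of these rest on 14 against 0 and 16 against 2 fragments at 24 h (EWT against CK). Neither gene would have entered the test without EWT at 12 h, and elsewhere each reached 1 FPKM only in EWT at 24 h. Their calls at 24 h thus carry no weight either. At 24_3 h the interaction was 2.40 for evm_TU_scaffold_102_34, 1.61 for evm_TU_scaffold_629_163, -2.99 for evm_TU_scaffold_1889_17 and -3.88 for evm_TU_scaffold_843_128, the last lost on leaving out replicate 2 of CK or replicate 1 or 3 of EWT at 0 h, or replicate 1 or 2 of CK or replicate 4 of EWT at 24_3 h (limma adjusted p = 0.0506 to 0.0771). Without the last of these libraries it was -2.66.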

How the results depend on the processing

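With the counts of called genes refitted in 912 combinations of comparison and alternative, 11 moved by more than 1.5 times. Without the filter on low values 36 genes in place of 23 were called in EWT at 12 h. The interaction at 24 h gave 4 calls with precision weights and 15 with unadjusted p-values in place of 7, and that at 24_3 h gave 8 with a pseudocount of 1 and 16 with unadjusted p-values in place of 5. Leaving out each library in turn gave 6 to 12 calls in EWT at 3 h and 4 to 10 for the interaction at 24_3 h. The cause of these moves was not tested. Of 123 results for named genes none changed direction, 99 kept their call without each library in turn, and 113, 117, 118, 116 and 112 kept it with a pseudocount of 1, of 0.01, no filter, all counted fragments and only the groups compared. Replicate numbers did not pair the libraries: deviations of same-numbered libraries correlated at -0.08 to 0.13, with 1 of 180 pairs above 0.1. The replicate block gave 12 calls in place of 10 in EWT at 3 h and 16 in place of 15 for the interaction at 3 h, and 122 of 123 named results kept their call. Of the 45 tested genes, 7 passed the filter only with the group where they were highest, and 65 of the 110 genes could not be tested at this depth.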
